A study of Danio rerio with 20 samples.

Results

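The zebrafish genes described here are those whose symbol is znf followed by a number, 299 of the 32105 named entries of the deposited expression table. They carry 266 distinct symbols, because 29 symbols stand on more than 1 entry (62 entries in all), and upper-case ZNF entries were not taken in. The symbol number splits them into 203 members numbered 900 or more and 96 numbered under 900. The number is a name and no measured property.

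Most znf genes are named for the C2H2 zinc finger, a small fold in which a zinc ion is held by cysteine and histidine side chains. Arrays of such fingers typically read DNA sequence, and many of these proteins bind DNA and regulate transcription, although some bind RNA, ribosomes or the spindle. The zebrafish genome carries a large set of closely related znf genes in tandem clusters. An early embryo lives on RNA laid down in the egg until that maternal RNA is cleared and its own genome is switched on, the maternal-to-zygotic transition. TUT4 and TUT7 are terminal uridylyltransferases, enzymes that add uridines to RNA tails and so mark RNA for decay.

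The study injected AB strain embryos from natural matings at the 1-cell stage and sequenced total RNA from whole embryos with rRNA depleted. The groups were TUT47MO (TUT4 and TUT7 morpholinos together), TUT7MO and TUT4MO (each morpholino alone) and ConMO (control morpholino). Set rs1a holds all 4 groups at 2, 4 and 6 hours post fertilization (hpf). TUT47MO and ConMO embryos were also taken at 3 and 6 hpf in set rs1b and at 3 and 5 hpf in set rs2. Each group and hour of a set is 1 library, and there are 20 in all. Early means 2 or 3 hpf and late means 5 or 6 hpf, so each phase has 3 TUT47MO and 3 ConMO libraries. The labels describe the TUT morpholinos as translation-blocking, so an mRNA level gives no check of the knockdown. They do not say how many embryos or clutches a library holds, so p-values measure only the spread between these libraries.

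Depth was 1.19e+07 to 3.28e+07 estimated reads per library. The entries AC024175.4 and AC024175.17 were counted here as mitochondrial rRNA. They took 44.6 to 51.6% of reads in 6 libraries and 1.17 to 14.4% in the other libraries. The 6 were all rs1a libraries at 6 hpf and the rs1a TUT7MO and TUT47MO libraries at 4 hpf. Without these entries the znf genes took 0.826 to 1.14% of reads. Levels are given in CPM, estimated reads scaled to a common library total, over all 20 libraries. CPM is not corrected for gene length, so levels are compared between libraries and never between genes. In whole embryos, fewer cells expressing a gene and less RNA per cell cannot be told apart. Near-identical znf copies can trade reads in the authors' estimates, so the value of an entry whose symbol is shared is uncertain.

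The znf genes fell into classes by their CPM in rs1a ConMO embryos, which describe this set and are not a test. Of the 299 members, 103 were maternal (at least 5 CPM at 2 hpf), 97 were intermediate (1 to 5 CPM at 2 hpf) and 53 stayed low (under 1 CPM at 2 hpf and under 5 CPM later). Another 21 were on by 4 hpf and 25 were on by 6 hpf (under 1 CPM at 2 hpf and at least 5 CPM at that hour). These 46 switched-on members were 15.4% of the znf genes, against 3.39% of all genes. The all-gene share counts every named entry, and 53.6% of all genes were low, against 17.7% of the znf genes. Since the limits are in CPM, a gene's length also bears on its class.

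The maternal and switched-on members were largely different kinds of znf gene by number. Members numbered under 900 made up 67 of the 103 maternal members but only 3 of the 46 switched-on ones. Those 3 were znf185, znf703 and znf750, and all 3 came on by 6 hpf. The 21 members on by 4 hpf were all numbered 900 or more, as were 88 of the 97 intermediate members. Nearest to the maternal limit, znf1053 (ENSDARG00000098270) had 5.11 CPM and znf1130 had 5.15 CPM inside it, while znf1041 had 4.89 CPM and znf986 had 4.81 CPM outside it. Nearest to the switched-on limit, an entry of znf1045 (ENSDARG00000094034) reached 5.37 CPM, znf1132 reached 5.43 CPM, another znf1045 entry (ENSDARG00000102791) reached 4.86 CPM and znf1078 reached 4.70 CPM.

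**Figure D1:**
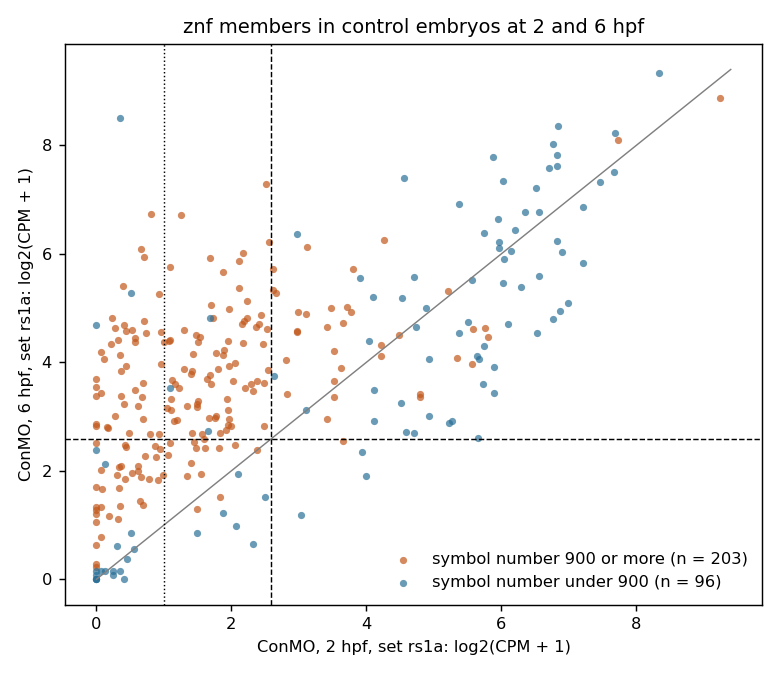
Level of each of the 299 znf members in rs1a ConMO embryos at 2 hpf (x axis) and 6 hpf (y axis), as log2(CPM + 1), 1 point per member. The dotted line marks 1 CPM, the dashed lines mark 5 CPM and the grey line marks equal levels. Members numbered 900 or more lie mostly above the grey line at the left, and members numbered under 900 lie on either side of it at the right.

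In control embryos the znf genes rose as a group between the early and the late phase. Of 287 members tested, 212 were higher and 43 lower in late than in early ConMO embryos (limma, adjusted p under 0.05), when 35.8% of all 18082 genes tested were higher and 36.9% were lower (72.6% in all). The median log2 change was 1.60 for the members and −0.06 for all genes. Members numbered 900 or more accounted for most of this, with 183 of 201 higher, 8 lower and a median of 2.15. Of 86 members numbered under 900, 29 were higher and 35 lower, with a median of −0.18. On deposited scaling (the authors' values as deposited, with no correction for depth added), the members lower in late ConMO embryos numbered 10 rather than 43.

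The members with the largest rise included znf185, which in mammals encodes a LIM-domain protein of the actin cytoskeleton rather than a C2H2 factor. In late ConMO embryos znf185 (ENSDARG00000103917) had 364, 108 and 212 CPM (sets rs1a, rs1b and rs2, the order used throughout), and in early ConMO embryos 0.280, 0.159 and 0.711 CPM. The groups were far apart in every set, and the log2 change was 7.22 ± 0.30 (SE, n = 3 pairs; limma, adjusted p = 1.7e-06). This SE is limma's moderated value, which draws on the spread of other genes, and is not the spread of the pairs alone. The other 4 largest rises were those of znf1043 (6.12), znf1063 (6.05), znf1066 (5.83) and znf1060 (5.59), all numbered above 900.

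The largest falls were those of maternal members. The class limits favour this, since a member with a low level at 2 hpf has little room to fall. The level of znf277, whose human counterpart binds the Polycomb protein BMI1, was 5.10, 4.16 and 6.41 CPM in late ConMO embryos and 49.2, 52.3 and 46.7 CPM in early ones. Every late library lay below every early library, with a log2 change of −3.05 ± 0.18 (SE, n = 3 pairs; limma, adjusted p = 7.2e-06). Next came znf652, a transcriptional repressor in human cells (−2.42), znf687a, whose human counterpart belongs to a zinc finger complex with ZMYND8 (−2.37), znf296, a partner of the pluripotency factor Klf4 in mouse (−2.21), and znf142 (−2.21).

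Maternal members did not share a course. By the change from 2 to 6 hpf in rs1a ConMO, 30 were at least 2-fold lower at 6 hpf, 45 stayed within 2-fold and 28 were at least 2-fold higher. The 30 lower members had summed levels of 437 CPM (rs1a), 481 CPM (rs1b) and 661 CPM (rs2) in late ConMO embryos, against 1511, 1475 and 1663 CPM in early ones. The 28 higher members summed to 2887, 2991 and 3068 CPM in late ConMO embryos, against 1028, 1017 and 1077 CPM in early ones. The sets rs1b and rs2, which did not choose these members, thus ran the same way as rs1a. By symbol number, 23 of the 30 lower members were numbered under 900 and 16 of the 28 higher members were numbered 900 or more.

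Summed over the 21 members on by 4 hpf, rs1a ConMO embryos had 7.00, 472 and 567 CPM at 2, 4 and 6 hpf. The 25 members on by 6 hpf summed to 11.0, 32.3 and 709 CPM at those hours. The class limits require the 25 to be higher at 6 than at 4 hpf. They leave the later course of the 21 members on by 4 hpf free, and 6 of these were lower at 6 than at 4 hpf.

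Those 6 members were znf1109, znf1127 (ENSDARG00000091502), znf1058, znf1125, znf1126 and znf1052. In rs1a ConMO embryos znf1109 had 0.211, 102 and 24.0 CPM at 2, 4 and 6 hpf, and znf1127 had 0, 46.6 and 10.7 CPM. The level of znf1126 was 0, 26.9 and 9.42 CPM at these hours. These courses rest on 1 library per hour, and the sets rs1b and rs2 hold no 4 hpf library to set beside them.

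**Figure D2:**
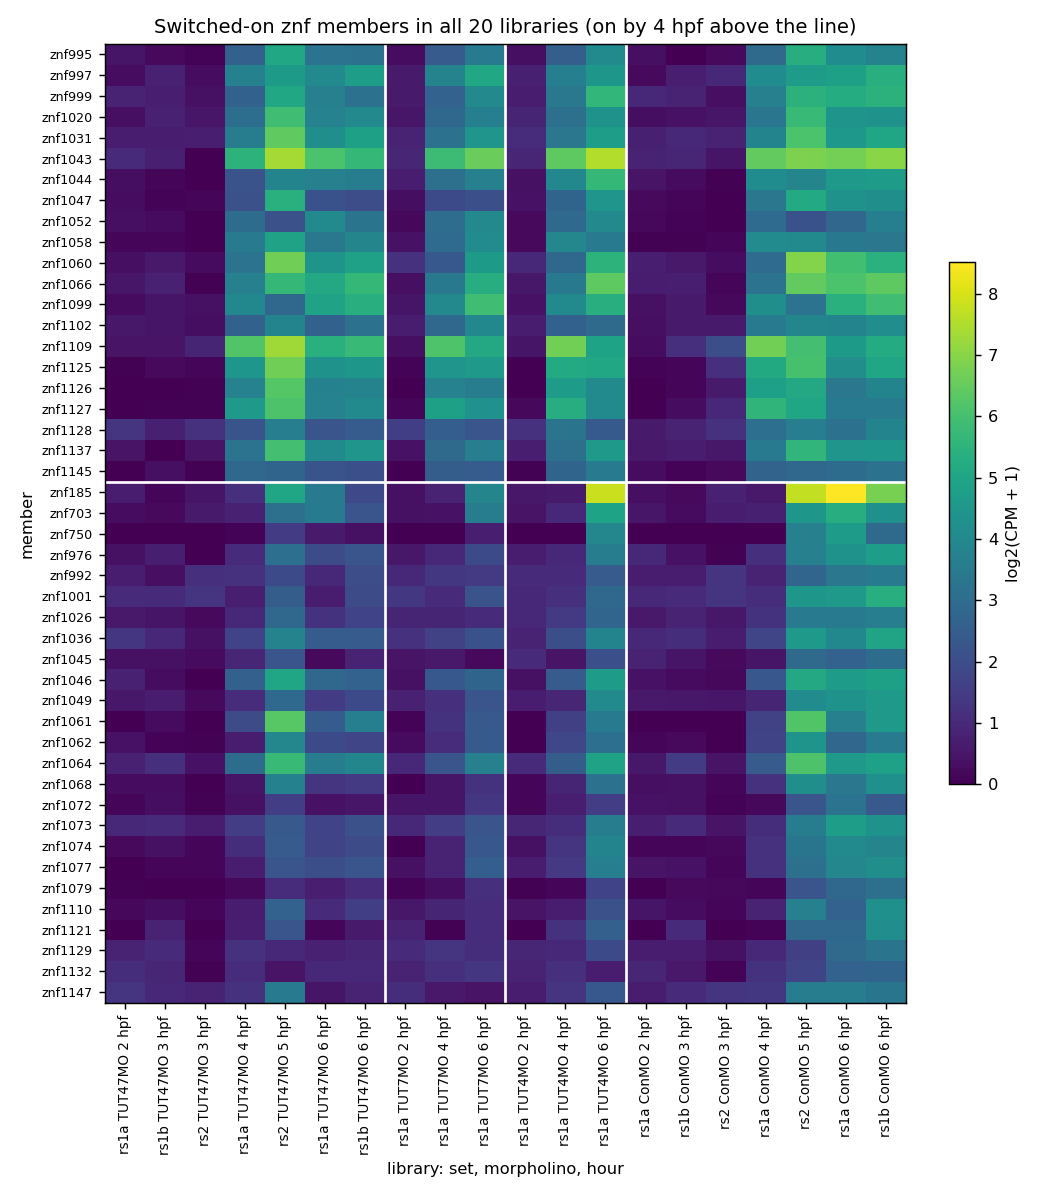
Levels of the 46 switched-on members (rows) in all 20 libraries (columns, grouped as TUT47MO, TUT7MO, TUT4MO and ConMO, each from early to late), as log2(CPM + 1). All 21 members above the line gain signal at 4 hpf, which the class limits require in rs1a ConMO. Most of the 25 below it are dim in late TUT47MO and in TUT7MO at 6 hpf beside late ConMO, less so in rs2.

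TUT47MO embryos had lower levels of most znf genes in the late phase. Of 291 members tested, 43 were higher and 187 lower in late TUT47MO than in late ConMO embryos (limma, adjusted p under 0.05), when 32.4% of all 18884 genes tested were higher and 30.5% were lower (62.9% in all). The median log2 change was −0.89 for the members and 0.05 for all genes. Members numbered 900 or more had 8 higher and 157 lower of 201, with a median of −1.34, whereas members numbered under 900 had 35 higher and 30 lower of 90, with a median of 0.05. The other 8 members were too low to be tested.

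The counts depended on which set was left out: without set rs1a they were 28 higher and 119 lower, and without set rs1b they were 34 higher and 121 lower. Without set rs2 they were 41 higher and 207 lower. With genes averaging at least 5 CPM alone, 109 members were lower. Leaving out a set also leaves fewer libraries to estimate the spread of every gene, and the 5 CPM limit leaves fewer members to test. The all-gene shares under these settings are not given here, so these counts do not show what is particular to the members. The shift itself was present in each set, with member medians of −1.05 at 6 hpf in rs1a, −1.22 at 6 hpf in rs1b and −0.39 at 5 hpf in rs2, each below the all-gene medians of 0.07, 0.10 and −0.01. Late TUT47MO and late ConMO levels did not overlap for many members: all 3 TUT47MO libraries were below all 3 ConMO libraries for 130 of 291 members (44.7%, against 22.1% of all genes) and above them for 25 (8.59%, against 25.1%).

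Levels of maternal and zygotic marker RNAs moved with this result. Of the maternal RNAs mos, buc and zp3b, mos was at 19.1 to 50.4 CPM in late TUT47MO embryos and 3.12 to 12.05 CPM in late ConMO embryos. The buc level was 265 to 469 CPM in late TUT47MO embryos and 33.9 to 106 CPM in late ConMO embryos, and zp3b was at 46.9 to 85.1 and 27.2 to 37.0 CPM in these groups. Of the zygotic RNAs ta, vent, her1 and krt4, ta (the mesoderm factor Brachyury) was at 77.8 to 115 CPM in late TUT47MO embryos and 416 to 730 CPM in late ConMO embryos. The level of vent was 31.7 to 57.9 CPM in late TUT47MO and 96.9 to 144 CPM in late ConMO embryos, her1 was at 0.687 to 1.06 and 26.3 to 59.9 CPM in these groups, and krt4 was at 216 to 337 and 1269 to 1961 CPM. All 7 markers were thus without overlap between the groups, and their part in the znf changes was not tested.

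Late changes were also read by class. All 25 members on by 6 hpf were lower in late TUT47MO embryos, as were 92.7% of all genes of that class, so the share of the members is near that of the class. The rs1a ConMO library at 6 hpf serves both in the class limits and in the late comparison, so the class medians are read in rs1b and rs2. For members on by 6 hpf the median log2 change was −2.26 in rs1b and −0.85 in rs2, beside −2.50 and −1.42 for all genes on by 6 hpf. Members on by 4 hpf moved less, with 2 higher and 10 lower of 21 (47.6% lower). Over all genes of that class 14.6% were higher and 54.4% lower, so the share of lower members is near that of the class. The members' medians were −0.62 in rs1b and −0.03 in rs2, beside −0.89 and −0.34 for all genes of that class. Summed over these 21 members, late TUT47MO embryos had 373 CPM in rs1a, 428 CPM in rs1b and 1133 CPM in rs2. Late ConMO embryos had 567, 674 and 896 CPM, so the sum in rs2 ran the other way. On deposited scaling the medians of members on by 4 hpf were 0.15 and 0.32 in these sets, while those of members on by 6 hpf were −2.06 and −0.69. That scaling moved the all-gene medians to 0.90 and 0.33. Less the all-gene median, members on by 4 hpf stood at −0.75 and −0.01 on deposited scaling and at −0.72 and −0.03 with TMM. Members on by 6 hpf stood at −2.96 and −1.02 on deposited scaling and at −2.35 and −0.84 with TMM.

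Intermediate members made up the largest share of the lower ones, with 5 higher and 78 lower of 97 (all intermediate genes, 29.6% higher and 27.6% lower). Their medians were −1.77 in rs1b and −0.53 in rs2, whereas all intermediate genes had medians of 0.15 and 0.03. The 2 groups differed in their course in ConMO embryos. From early to late ConMO the intermediate members rose, with medians of 2.41 in rs1b and 2.35 in rs2. All intermediate genes had medians of −0.15 and −0.12 there. Whether the members differ from other intermediate genes that rise in ConMO was not tested. The 103 maternal members had 35 higher and 44 lower (all maternal genes, 43.7% higher and 25.7% lower). Their medians were −0.34 in rs1b and 0.05 in rs2, beside 0.32 and 0.15 for all maternal genes. On deposited scaling, which moved the all-gene median to 0.90 in rs1b and 0.33 in rs2, the maternal members' medians were 0.43 and 0.42.

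The maternal class again held opposite courses. Of the 30 maternal members that were at least 2-fold lower at 6 hpf in rs1a ConMO, 25 were higher and none lower in late TUT47MO embryos, with medians of 0.88 in rs1b and 0.68 in rs2 (all such genes, 1.29 and 0.89). Of the 28 that were at least 2-fold higher at 6 hpf in rs1a ConMO, none was higher and 27 were lower, with medians of −1.78 in rs1b and −0.93 in rs2 (all such genes, −1.14 and −1.02). Of the 45 that stayed within 2-fold, 10 were higher and 17 lower (all such genes, 25.5% higher and 25.1% lower). Over all genes, 89.8% of such maternal genes with a fall in ConMO were higher and 82.1% of those with a rise were lower, and both counts share the rs1a ConMO library with the split.

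**Figure D3:**
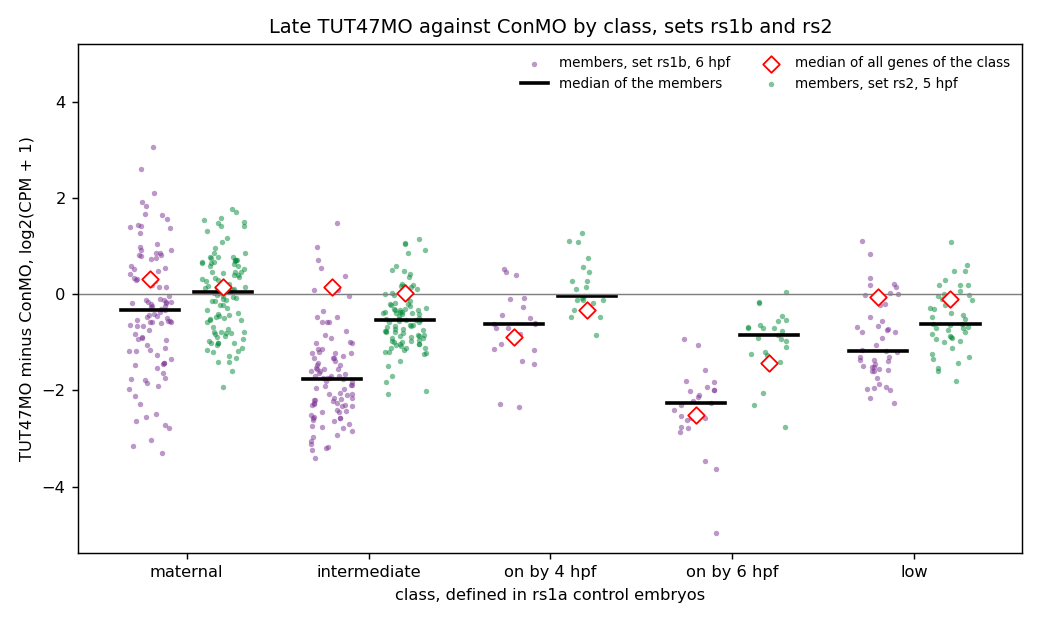
Log2 difference, TUT47MO minus ConMO, of each tested member at 6 hpf in rs1b and 5 hpf in rs2 (y axis), by class (x axis). Black bars mark the median of the members and red diamonds the median of all genes of that class. Intermediate members lie below their diamonds, with medians of −1.77 and −0.53 beside 0.15 and 0.03. Most of these members rose from early to late ConMO, whereas the median of all intermediate genes did not.

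The 10 members with the largest rises in late TUT47MO embryos were all maternal. The level of znf710a was 170, 196 and 107 CPM in late TUT47MO embryos and 27.0, 21.4 and 34.8 CPM in late ConMO embryos. Its early levels were 102, 108 and 95.3 CPM in TUT47MO and 108, 113 and 93.6 CPM in ConMO embryos. The late groups did not overlap, and the late log2 change was 2.41 ± 0.25 (SE, n = 3 pairs; limma, adjusted p = 0.00012), the largest rise among the members. The SE of each late TUT47MO change rests on a spread shared by the early and late pairs, not on the late pairs alone.

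Its fellow maternal member znf277 had 25.97, 31.6 and 21.9 CPM in late TUT47MO embryos and 5.10, 4.16 and 6.41 CPM in late ConMO embryos, a change of 2.11 ± 0.18. The level of znf652 was 29.5, 21.7 and 32.8 CPM in late TUT47MO embryos and 6.52, 4.08 and 8.96 CPM in late ConMO embryos, a change of 1.95 ± 0.12. For znf609a, whose mouse counterpart binds the cohesin loader Nipbl, late levels were 142, 112 and 182 CPM in TUT47MO and 33.2, 33.4 and 62.2 CPM in ConMO embryos, a change of 1.73 ± 0.13. None of these 3 members overlapped between the late groups.

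The remaining rises among the 10 largest were those of znf692 (1.63), znf385c (1.62), znf296 (1.52), znf653 (1.43), znf395 (1.31) and znf76 (1.18). Adjusted p over the 20 members with the largest rises and falls ran from 2.3e-05 to 0.0026 (limma). The rise of znf76 did not pass the test without set rs1a. All 10 were lower in late than in early ConMO embryos, with log2 changes from −0.85 for znf76 to −3.05 for znf277, although on deposited scaling the fall in ConMO was not called for znf710a, znf609a, znf395 and znf76.

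The 3 deepest falls were those of members on by 6 hpf. The class was chosen for its level in the rs1a ConMO library at 6 hpf, which leaves room to fall, so its place here is a description. In late TUT47MO embryos znf185 had 10.3, 2.64 and 31.6 CPM, against 364, 108 and 212 CPM in late ConMO embryos. The groups were far apart, with a log2 change of −4.26 ± 0.41 (SE, n = 3 pairs; limma, adjusted p = 8.8e-05). For znf1001 (ENSDARG00000103777, a shared symbol) the levels were 0.587, 2.87 and 4.72 CPM in late TUT47MO and 22.6, 39.7 and 21.9 CPM in late ConMO embryos, a change of −3.16 ± 0.32. The epidermal differentiation factor znf750, a role known in human and mouse, had 0.532, 0.317 and 1.76 CPM in late TUT47MO embryos and 24.7, 6.68 and 12.1 CPM in late ConMO embryos, a change of −3.02 ± 0.31. All 3 members were without overlap between the late groups, and znf750 was at 0 CPM in every early library. Early pairs near 0 CPM add almost no spread to the shared SE. The SE and p-values of such members can therefore come out too small for their late pairs.

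Among the other 7 of the 10 lowest, 5 were intermediate, namely znf1081 (−2.81), znf1082 (−2.78), znf1094 (−2.61), znf1114 (−2.52) and znf569l (−2.50). The other 2 were maternal members that rose in ConMO embryos. One was znf1053 (ENSDARG00000098270), at −2.62. Its companion znf281a, a C2H2 factor related to mammalian ZNF281, had 24.8, 27.4 and 79.1 CPM in late TUT47MO embryos and 168, 220 and 203 CPM in late ConMO embryos, a change of −2.39 ± 0.27. Early znf281a levels were 23.0, 19.2 and 29.9 CPM in TUT47MO and 22.5, 19.7 and 28.7 CPM in ConMO embryos, where the ranges overlapped.

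**Figure D4:**
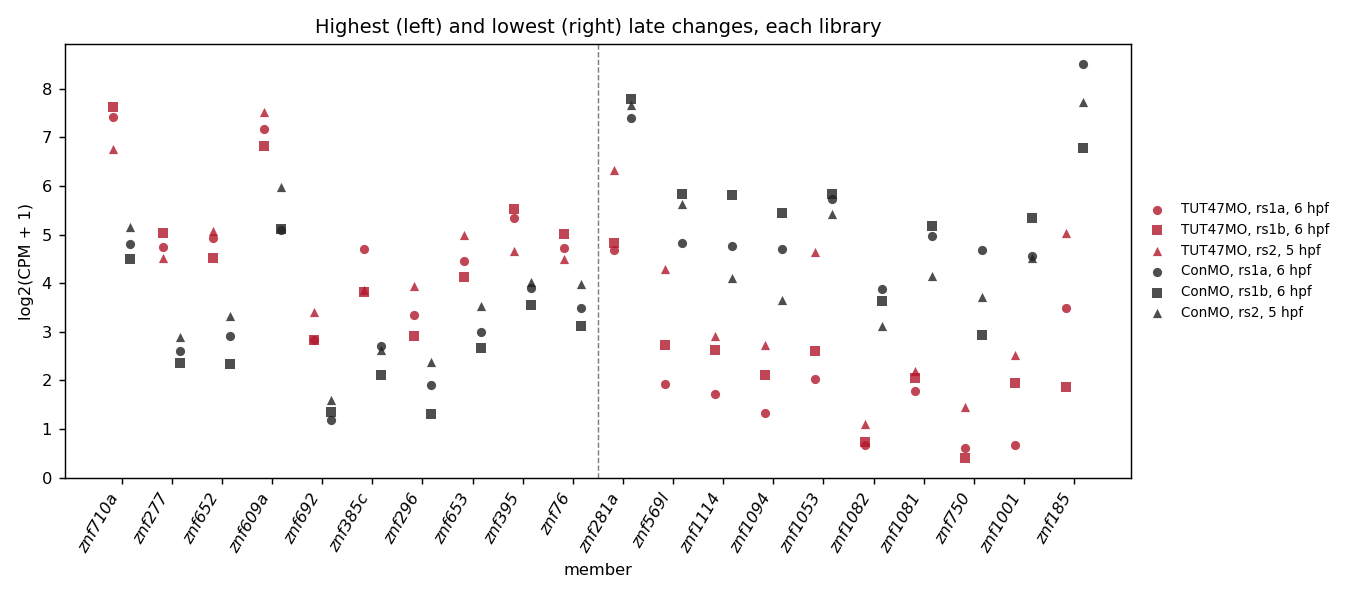
Levels of the 10 members with the largest rises (left of the dashed line) and the 10 with the largest falls (right) in late TUT47MO (red) and late ConMO (black), as log2(CPM + 1) on the y axis, 1 point per library with the set given by its shape. For znf710a all 3 TUT47MO points lie above the ConMO points, and for znf185 all 3 lie below them.

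Among members on by 4 hpf, 2 of the 6 that were lower at 6 than at 4 hpf in rs1a ConMO were called higher in late TUT47MO embryos. The level of znf1109 was 41.8, 53.0 and 156 CPM in late TUT47MO embryos and 24.0, 36.3 and 61.4 CPM in late ConMO embryos. Each TUT47MO library was above its own ConMO library although the ranges overlapped, and the log2 change was 0.84 ± 0.27 (SE, n = 3 pairs; limma, adjusted p = 0.025). For znf1127 (ENSDARG00000091502) late levels were 12.8, 15.97 and 69.6 CPM in TUT47MO and 10.7, 10.3 and 30.7 CPM in ConMO embryos, a change of 0.62 ± 0.23 (limma, adjusted p = 0.048). These were the 2 members of their class that passed the test as higher. The 6 were picked for a rs1a ConMO level at 6 hpf below that at 4 hpf. That 6 hpf library also enters the late test, which favours a rise. The late changes and p-values of these 6 members are therefore a description.

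The other 4 members that peaked at 4 hpf did not pass the test, with late log2 changes of 0.46 for znf1126, 0.37 for znf1058, 0.23 for znf1052 and 0.05 for znf1125. At 4 hpf in rs1a, znf1109 had 73.1 CPM in TUT47MO, 70.4 CPM in TUT7MO, 103 CPM in TUT4MO and 102 CPM in ConMO embryos. For znf1127 these levels were 22.9, 27.8, 38.6 and 46.6 CPM in the same order of groups, each from 1 library. Both members were picked for their course in these ConMO libraries, so the rs1a values are a description.

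The members on by 4 hpf that kept rising in ConMO included znf1066, with 33.8, 49.6 and 49.7 CPM in late TUT47MO embryos and 67.5, 84.2 and 86.6 CPM in late ConMO embryos. These groups did not overlap, and the log2 change was −0.88 ± 0.13 (SE, n = 3 pairs; limma, adjusted p = 0.00059). The call was lost on deposited scaling. For znf999 the late levels were 11.96, 8.03 and 32.3 CPM in TUT47MO and 37.3, 42.9 and 43.4 CPM in ConMO embryos, also without overlap, a change of −1.47 ± 0.30. Over the class, all late TUT47MO libraries lay below all late ConMO libraries for 4 of 21 members (19.0%). That share is near the 22.1% of all genes, so these examples are not typical of the class. The members znf999, znf1109 and znf1127 were chosen after their values were seen.

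Of 39 symbols listed for a role, 34 were in the table and 31 were tested late, with 12 higher and 10 lower in late TUT47MO embryos, shares near the 32.4% and 30.5% of all genes. The list was drawn up with earlier results of these data known. The others were znf385a, znf521 and znf219, which were low in every late library.

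Of the ribosome factors, znf598, the ligase that marks collided ribosomes, had 59.4, 28.9 and 94.8 CPM in late TUT47MO embryos and 25.3, 15.2 and 65.7 CPM in late ConMO embryos. Each TUT47MO library was above its own ConMO library, with a log2 change of 0.83 ± 0.14 (SE, n = 3 pairs; limma, adjusted p = 0.0013). The biogenesis factor znf622 did not pass the test (−0.05 ± 0.19). Its fellow znf593, which acts on the large ribosomal subunit, was lower (−0.71 ± 0.19), a call lost on deposited scaling, with the late libraries alone, and without set rs1a or rs1b.

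The spindle assembly factors were both lower in late TUT47MO embryos. The level of znf207a was 114, 97.2 and 75.5 CPM in late TUT47MO embryos and 160, 138 and 220 CPM in late ConMO embryos, a change of −0.88 ± 0.20. For znf207b the levels were 17.9, 14.8 and 13.5 CPM in late TUT47MO and 35.8, 27.1 and 27.8 CPM in late ConMO embryos, a change of −0.97 ± 0.11. The late groups did not overlap for either gene, and both calls were lost on deposited scaling.

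The znf143 group, which in human cells activates small nuclear RNA genes, was split between its paralogs. The level of znf143b was 55.9, 63.9 and 43.6 CPM in late TUT47MO embryos and 29.7, 33.5 and 25.7 CPM in late ConMO embryos. Those groups did not overlap, with a change of 0.80 ± 0.10 (SE, n = 3 pairs; limma, adjusted p = 0.00022). Its paralog znf143a had 53.7, 67.7 and 63.4 CPM in late TUT47MO and 68.1, 77.1 and 67.6 CPM in late ConMO embryos and did not pass the test (−0.25 ± 0.11). The difference between the paralogs was not tested.

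Of the RNA-binding members, znf346, which binds double-stranded RNA, had 201, 171 and 68.0 CPM in late TUT47MO embryos and 328, 254 and 249 CPM in late ConMO embryos. The groups did not overlap, and the change was −1.09 ± 0.23, a call lost on deposited scaling. The related znf385c rose (1.62 ± 0.18), while znf385b and znf385d, at under 1 CPM in every late library, did not pass the test. The DBIRD complex subunit znf326, which in human cells links elongation with splicing, was higher (0.92 ± 0.23), a call lost without set rs1a or set rs1b.

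Among members that work with chromatin proteins, znf687a rose (1.12 ± 0.11), as did znf532 (0.88 ± 0.14) and the SUMO ligase znf451 (0.47 ± 0.13). The other members of that list did not pass the test, with changes of 0.18 for znf644a, 0.10 for znf644b, 0.04 for znf687b and 0.04 for znf592. The znf451 call was lost with DESeq2, with median-of-ratios size factors, with the late libraries alone and without set rs1a. The level of znf687a was 25.4, 19.7 and 22.2 CPM in late TUT47MO embryos and 9.86, 9.10 and 9.53 CPM in late ConMO embryos, without overlap.

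Of the developmental regulators, znf703, a transcriptional repressor of the same family as znf503, was on by 6 hpf. It had 10.5, 3.75 and 7.89 CPM in late TUT47MO embryos and 38.0, 18.5 and 21.8 CPM in late ConMO embryos. The groups did not overlap, and the change was −1.76 ± 0.17 (SE, n = 3 pairs; limma, adjusted p = 8.5e-05). Smaller falls were those of znf281b (−0.65), znf148 (−0.57) and znf503 (−0.49), all lost on deposited scaling, and rises were those of znf804a (1.11), znf365 (0.83) and znf536 (0.79). Without set rs1a the calls of znf148, znf503, znf365 and znf536 were lost, and without set rs1b those of znf148, znf503 and znf365.

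In the early phase no gene passed the test between TUT47MO and ConMO embryos (limma, 0% of 18884 genes tested). At an unadjusted p under 0.05 there were 108 genes (0.572%) and 0 members, and edgeR and DESeq2 also called 0 members. That limma share is far below what this limit gives when nothing differs. Early changes were judged against a spread shared with the late pairs, so small early changes could go uncalled. The members' median log2 change was −0.01. The late and early effects differed for 35 members in the upward and 155 in the downward direction (late minus early in the same limma fit, over all genes 24.0% and 23.8%, or 47.8% in all). Without set rs1a these counts were 11 and 25, and without set rs1b they were 17 and 33. Fewer libraries then remain to estimate the spread of every gene, and the all-gene shares of these smaller fits are not given here.

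The single morpholinos were present in rs1a only, so their effects were averaged over 2, 4 and 6 hpf. None of 276 members and none of 17755 genes passed the test for TUT4MO, TUT7MO or TUT47MO in this set (limma, 0% for each), and edgeR also called 0 members. An effect that differs between hours adds to the residual spread of this model. The lack of calls therefore cannot show that a group was like ConMO at 6 hpf. At an unadjusted p under 0.05, TUT4MO had 0 members higher and 0 lower (1.15% of all genes), TUT7MO had 1 higher and 17 lower (4.00% of all genes), and TUT47MO had 6 higher and 29 lower (11.2% of all genes). These all-gene shares cover both directions together. Those of TUT4MO and TUT7MO lie below what this limit gives when nothing differs, so no result about the members is read from these counts. The 3 groups share their ConMO libraries, so their values stand side by side here and are not independent.

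At 6 hpf in rs1a the median log2 difference of the 276 members from ConMO was −1.06 in TUT47MO, −1.01 in TUT7MO and −0.23 in TUT4MO. All genes had medians of 0.07, 0.04 and −0.01. At 4 hpf the members' medians were −0.10, −0.08 and 0.01. Members on by 6 hpf had medians at 6 hpf of −2.22 in TUT47MO, −1.91 in TUT7MO and −0.61 in TUT4MO, beside −2.42, −2.05 and −0.79 for all genes on by 6 hpf. The class was chosen for high values in the same ConMO library, so these medians are a description and nothing is read from their sign.

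At 6 hpf in rs1a, znf185 had 10.3 CPM in TUT47MO, 13.8 CPM in TUT7MO, 227 CPM in TUT4MO and 364 CPM in ConMO embryos. The level of znf703 was 10.5, 11.2, 29.9 and 38.0 CPM in these groups, and znf750 had 0.532, 0.626, 14.2 and 24.7 CPM. The TUT7MO value lay next to the TUT47MO value for each, and each rests on 1 library. At 4 hpf the entries AC024175.4 and AC024175.17 took 44.6% of reads in TUT47MO and 44.7% in TUT7MO but 13.5% in TUT4MO and 14.4% in ConMO. CPM was computed on totals that include these entries and then scaled by TMM, and their part in the 4 hpf differences was not tested.

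The median log2 difference of members on by 4 hpf from ConMO at 4 hpf was −0.47 in TUT47MO, −0.62 in TUT7MO and −0.17 in TUT4MO. This ConMO library also defined the class, so these values too are a description. All genes on by 4 hpf had medians of −0.27, −0.28 and −0.08. At 6 hpf the medians were −0.67, −0.26 and 0.22 for the members and −0.89, −0.76 and −0.01 for all genes of the class. Intermediate members, whose class limits do not use the 4 hpf library, had medians at 4 hpf of −0.14 in TUT47MO (65 of 97 lower), −0.15 in TUT7MO (70 of 97 lower) and −0.01 in TUT4MO (50 of 97 lower). All intermediate genes had medians of 0.02, 0.02 and 0.01, with 47.0%, 46.6% and 48.1% lower. Most intermediate members rose from early to late ConMO and all intermediate genes as a group did not, so the courses compared are unlike.

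**Figure D5:**
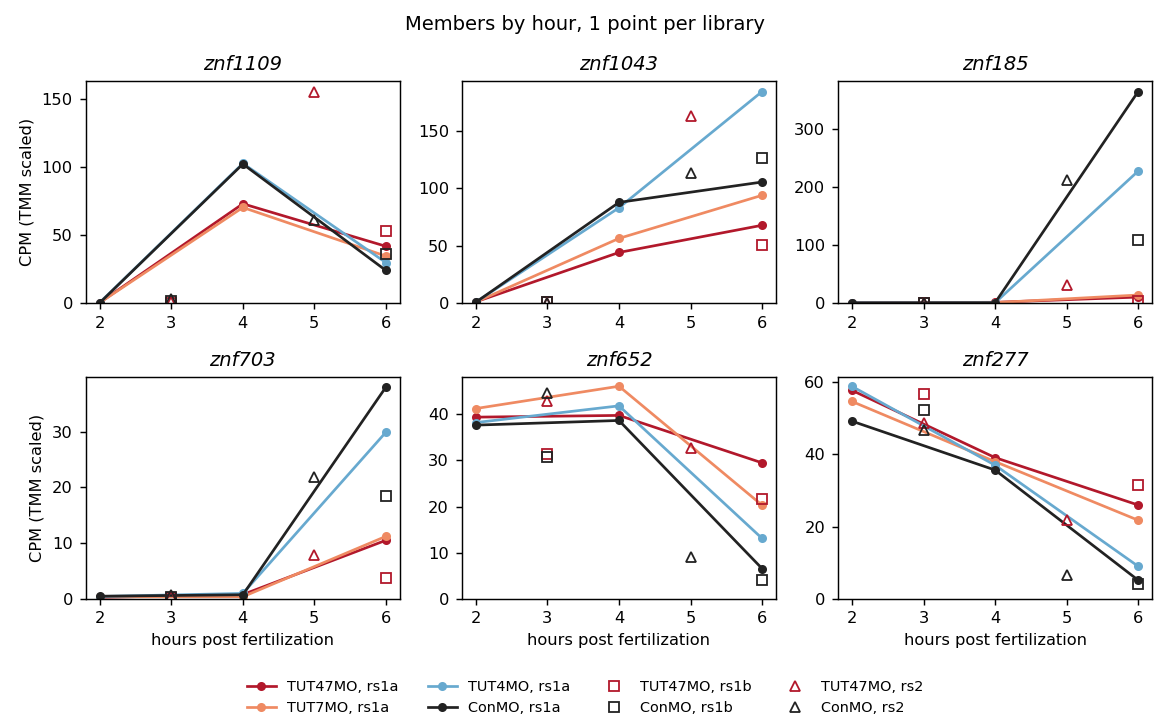
CPM (y axis) by hour post fertilization (x axis) of 6 members, 1 point per library. Lines join rs1a libraries of TUT47MO, TUT7MO, TUT4MO and ConMO, and open squares (rs1b) and triangles (rs2) show TUT47MO and ConMO. For znf185 the TUT47MO and TUT7MO lines end at 10.3 and 13.8 CPM, against 227 CPM in TUT4MO and 364 CPM in ConMO, while for znf652 and znf277 the TUT47MO line ends highest.

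Of 126 genes named for the zbtb, klf, sp, zic, sall, prdm, egr, gli, ikzf, gata, snai, zeb or zfhx families, 112 were tested late, with 39 higher and 39 lower in late TUT47MO embryos and a median of 0.03 (all genes, 32.4% higher and 30.5% lower). In late against early ConMO embryos, 47 of 106 were higher and 33 lower (all genes in that comparison, 35.8% higher and 36.9% lower). The zbtb genes, which pair zinc fingers with a BTB domain, had 18 higher and 6 lower of 35 in late TUT47MO embryos, and 5 higher and 20 lower of 35 in late against early ConMO embryos. Families with more lower than higher members in late TUT47MO embryos included zic (0 higher and 4 lower of 6), zeb (0 and 3 of 4), gata (1 and 4 of 6) and sall (1 and 4 of 6). The difference between these families and the znf genes was not tested.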

How the data were processed

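The deposited table, per the submitters' processing notes made with STAR 2.5.3a, RSEM and the GRCz10 genome, gives set rs1b as estimated counts. For the other sets the authors deposited a signal: each library's estimated counts times a constant of its own, 0.750 to 1.27 in rs1a and 0.382 to 2.03 in rs2. The sources used here do not say where that constant comes from. Deposited scaling means these values with no correction for depth added. In rs1b they are plain estimated counts, so differences in depth between its libraries remain in the changes. Dividing by the spacing of low values removed it, and then 84.1 to 90.6% of low values (at most 20 reads) lay within 0.02 of a whole number. Of 32660 entries, 555 (1.70%) carry no name or values and were left out. ERCC values were not used, so changes are relative to the library.

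TMM from edgeR 4.0.16 scaled the CPM, over all 20 libraries for levels and within each model for changes, and genes were kept by filterByExpr (minimum count 10). Tests used limma 3.58.1 in R 4.3.3 on log2(CPM + 1), with a trend and Benjamini-Hochberg adjustment over all genes at 0.05; on this scale changes of low genes come out too small. Early and late TUT47MO effects were fitted to 12 libraries, blocked by their 6 pairs (same set and hour), with 4 residual degrees of freedom. Both phases share the residual spread of a gene, so the early and late SE are equal and neither is the spread of its own pairs alone. The ConMO model had 6 libraries with set as a block and 2 residual degrees of freedom, and the rs1a model had hour as a block. In every limma model the SE is the moderated value, which draws on the spread of other genes. Pairing comes from the series text, which describes the sets as independent; paired libraries deviated together (correlation 0.448 to 0.927). No libraries agreed within sampling noise. The code was tested on simulated data, and edgeR and DESeq2 1.42.0 were run on values rounded to whole reads.

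The members and lists were chosen with earlier results of these data known. The text names members that pass the test with the same sign in every pair (the 10 highest and lowest late changes, the 5 and 5 of ConMO late against early), the role list, and members marked as chosen after their values were seen, which include those at class limits or peaking at 4 hpf. A planned count of fingers per protein was not made, since no protein table was used here, and no sequence is printed for that reason.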

Additional observations from a re-analysis of the deposited data

Results flagged for a closer look

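The TUT47MO effect differed between the late and the early phase for 35 members in the upward and 155 in the downward direction (late minus early in 1 limma fit). Over all 18884 genes tested, 24.0% differed upward and 23.8% downward, or 47.8% in all. Among the 20 members with the largest late changes, the difference on the log2 scale was 2.45 for znf710a, 1.98 for znf277, 1.94 for znf652, 1.72 for znf609a, 1.66 for znf296, 1.56 for znf385c, 1.48 for znf653, 1.47 for znf692, 1.26 for znf395 and 1.23 for znf76. It was −4.22 for znf185, −3.17 for znf1001, −3.02 for znf750, −2.82 for znf1081, −2.81 for znf1082, −2.60 for znf1094, −2.60 for znf1114, −2.53 for znf569l, −2.49 for znf1053 and −2.40 for znf281a. Each difference was tested directly. Without set rs1a, the counts were 11 and 25, and the calls of znf281a, znf385c, znf395, znf76, znf569l, znf1053, znf1094 and znf1114 were lost. edgeR and DESeq2 did not call znf750, which was at 0 CPM in every early library.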

How the results depend on the processing

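For late TUT47MO against ConMO, 43 members were higher and 187 lower (all genes, 32.4% higher and 30.5% lower). The count higher was 19 with no replicate block and 28 to 41 when a set was left out. The count lower was 109 among genes averaging at least 5 CPM and 119 to 207 when a set was left out (121 without rs1b). The late libraries alone gave 33 higher and 159 lower, edgeR 42 and 175, DESeq2 34 and 187, and members whose symbol stands on 1 entry 39 and 142.

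The count of members with a late effect above the early one (35) was 21 on deposited scaling, 13 with no replicate block and 11 to 35 when a set was left out (17 without rs1b). The count below (155) was 99 on deposited scaling, 103 with edgeR, 91 among genes averaging at least 5 CPM, 75 with no replicate block and 25 to 195 when a set was left out (33 without rs1b); leaving out a set also leaves fewer libraries to estimate the spread. Members lower in late than in early ConMO embryos numbered 10 on deposited scaling instead of 43. Pairing rests on the series text, and with no replicate block the late calls of znf1060, znf1063, znf142, znf148, znf326, znf451, znf503, znf532, znf536 and znf598 were lost.

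Maternal members numbered 164 with a 2 CPM minimum, members on by 4 hpf 13 with a 10 CPM minimum, and members on by 6 hpf 42 with a 2 CPM minimum and 11 with unscaled CPM. For late changes by class, the medians of the members in rs1b and in rs2 were averaged. For maternal members this average (−0.14) was −0.63 with a 2 CPM minimum and 0.42 on deposited scaling. For members on by 4 hpf the average (−0.33) was 0.24 on deposited scaling. Deposited scaling also moved the all-gene medians, to 0.90 in rs1b and 0.33 in rs2. Alternatives on class scaling, edgeR in rs1a, the maternal split and single-entry symbols were chosen after seeing the data. Of the values of named members under alternatives for the late comparison, 600 kept their side of the threshold, 44 lost the call and 5 gained it. The cause of these shifts was not tested. Depth of 1.19e+07 reads or more limits low members most, and 8 members were not tested late.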
